A study of Mus musculus with 4 samples.

Results

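The mouse gene Satb1 (NCBI gene 20230) occupies 97.1 kb of chromosome 17, chr17:51736187-51833290 on GRCm38, and is transcribed from its higher coordinate towards its lower one. Every called summit inside it or within 200 kb of either end was listed, a window of 497.1 kb. These were 46 of the 12445 summits in 3 lists: 17 of 3608 for p53 replicate 1, 15 of 4767 for p53 replicate 2 and 14 of 4070 for PPAR-alpha. Satb1 was 1 of 21887 protein-coding genes and was picked because earlier work on the same lists had shown many summits there, so its counts, positions and scores are given as a description, with no test.

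The summits came from chromatin immunoprecipitation and sequencing of thymus from mice that carried the germline p53 AD/AD genotype and were killed at 4 weeks of age. The p53 AD protein forms dimers in place of the usual tetramers. All libraries share this genotype, tissue and age, so there is no wild-type p53 or p53-free group to compare with. There were 2 p53 libraries and 1 input library read at 50 nt and 1 PPAR-alpha library read at 75 nt, so antibody and read length cannot be told apart. The p53 libraries are numbered, but the labels do not say that they came from separate mice, and the input is not analysed here. A summit is the base of highest pile-up in a called peak, and its score is the authors' value, read as a −log10 p- or q-value. Read numbers are not known here, so scores rank summits within a list and are not compared in size between lists. Where 3 values follow each other below, their order is p53 replicate 1, p53 replicate 2, PPAR-alpha.

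SATB1 is a nuclear protein of thymocytes that binds AT-rich DNA prone to unpair and gathers distant stretches of chromatin at sites where remodelling enzymes act. Thymocytes that lack it fail at several steps of maturation, among them the choice between CD4 and CD8 lineages. The gene is transcribed from several alternative starts in T cells. p53 is a transcription factor of the DNA damage response, and PPAR-alpha is a nuclear receptor that switches on genes of fatty acid oxidation.

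RefSeq lists 5 starts of Satb1, all on the minus strand, at 51833290, 51832647, 51826588, 51812184 and 51812054. The 250 bases before 4 of them are shown, because most p53 summits of the window lie in the 40 kb stretch that holds these starts. Of the 14 PPAR-alpha summits, 6 lie in it. The window of the fifth start overlaps that of the fourth and is left out. Sequences are RefSeq GRCm38.p6, read on the minus strand from 5′ to 3′, and capitals mark letters that matched a motif searched for.
Start 51833290, chr17:51833291-51833540: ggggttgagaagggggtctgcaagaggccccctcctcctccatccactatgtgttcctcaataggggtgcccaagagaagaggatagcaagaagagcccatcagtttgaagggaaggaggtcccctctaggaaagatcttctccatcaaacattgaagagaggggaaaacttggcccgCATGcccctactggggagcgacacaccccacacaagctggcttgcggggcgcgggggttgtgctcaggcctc
Start 51832647, chr17:51832648-51832897: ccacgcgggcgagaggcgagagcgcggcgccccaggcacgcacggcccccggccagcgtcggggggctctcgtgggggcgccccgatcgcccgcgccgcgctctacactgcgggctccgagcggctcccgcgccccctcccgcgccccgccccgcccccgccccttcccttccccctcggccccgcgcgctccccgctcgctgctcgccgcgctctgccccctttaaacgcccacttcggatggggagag
Start 51826588, chr17:51826589-51826838: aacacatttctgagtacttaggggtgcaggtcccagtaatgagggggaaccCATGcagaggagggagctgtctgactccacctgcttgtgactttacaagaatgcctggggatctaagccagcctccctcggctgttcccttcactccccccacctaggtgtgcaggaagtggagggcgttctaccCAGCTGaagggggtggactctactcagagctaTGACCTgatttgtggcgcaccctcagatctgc
Start 51812184, chr17:51812185-51812434: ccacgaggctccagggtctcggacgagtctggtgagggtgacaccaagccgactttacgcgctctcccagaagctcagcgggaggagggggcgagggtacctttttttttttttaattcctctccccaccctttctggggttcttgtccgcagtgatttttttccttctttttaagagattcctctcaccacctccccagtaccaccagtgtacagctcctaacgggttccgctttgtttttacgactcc

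The window before start 51832647 is the richest in G and C, with 80.8% of its bases and 41 CpG steps, where the median of 32851 RefSeq promoter windows of that length has 52.4% and 6 CpG. The windows of 51833290, 51826588, 51812184 and 51812054 have 58.0%, 56.4%, 53.2% and 50.8%, with 5, 3, 12 and 6 CpG. Motifs were searched on both strands. The decamer of the p53 response element, present in 7.13% of all promoter windows, matched in 0 of the 5, and CATG, which can form its core, matched in 2 (53.9% of all windows). The PPAR direct repeat (0.0335% of all windows) matched in 0 of 5, and its repeated unit AGGTCA matched in 1, as TGACCT, before start 51826588 (14.0% of all windows). That window also holds the E box CAGCTG (13.0%). CCGGAA of ETS factors (12%), TGTGGT of RUNX factors (14.0%) and CTTTGA of TCF factors (13.8%) matched in 0 of 5. No summit of any list lies within the 300-base promoter windows of the 5 starts themselves, so these letters describe the starts and not the summits.

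Satb1 carried summits of all 3 lists along its start-proximal part, at its far end and at few places between. Its flanks held fewer per 100 kb than the gene. Inside the gene lay 16 summits of p53 replicate 1, 14 of p53 replicate 2 and 11 of PPAR-alpha, which is 16.5, 14.4 and 11.3 per 100 kb. Over the p53 libraries the mean was 15.4 ± 1.48 per 100 kb (SD, n = 2). The lower flank, beyond the far end of the gene, held 0, 0 and 1 summits, and the higher flank, upstream of the starts, held 1, 1 and 2. The flanks together thus had 0.25, 0.25 and 0.75 summits per 100 kb. Beyond 5 kb from the gene neither p53 list had a summit in the window, and PPAR-alpha had 2. As background, 53.9%, 60.1% and 54.8% of protein-coding genes had at least 1 summit inside or within 200 kb. Summits per 100 kb over the whole genome were not counted, so the flanks are set against the gene alone.

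**Figure D1:**
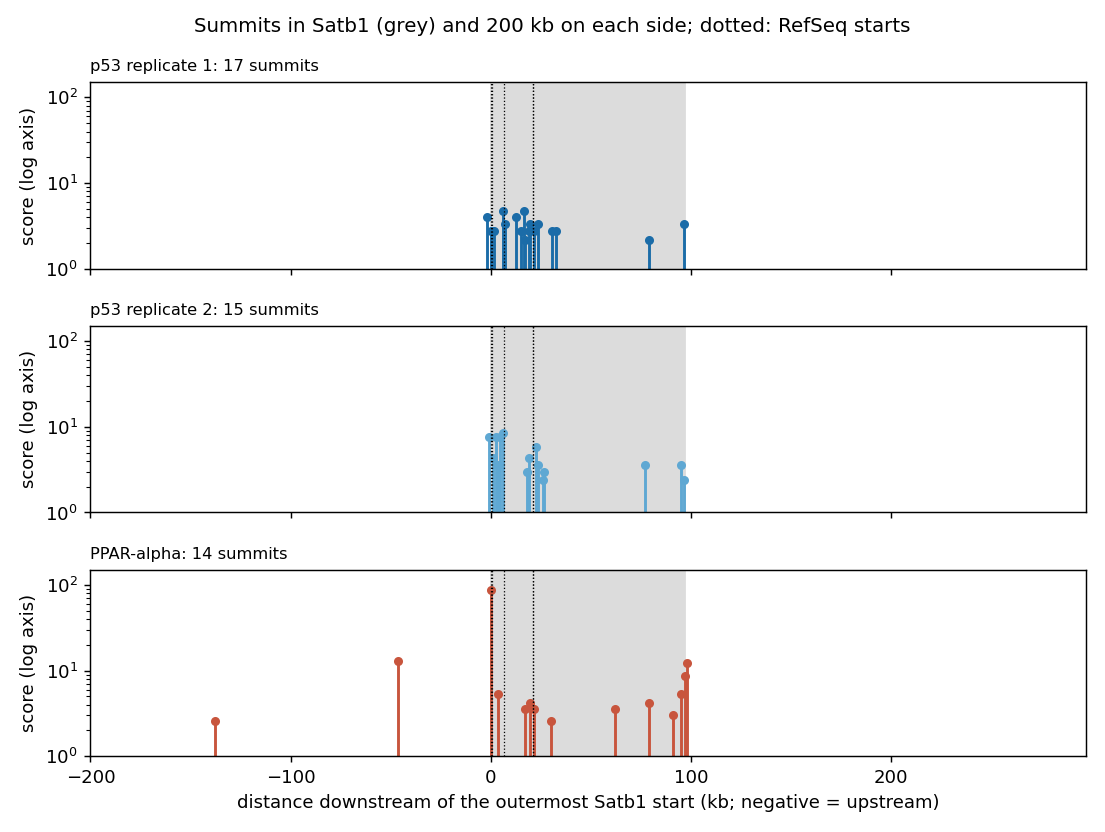
Score of each summit (log axis) against its distance downstream of the outermost Satb1 start in kb, for the 3 lists; grey marks the gene, dotted lines the RefSeq starts, and each stem is 1 summit. The 17 and 15 p53 summits lie in the gene or within 5 kb of it, and 2 of the 14 PPAR-alpha summits lie farther upstream.

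No other protein-coding gene lies in the window. The long noncoding RNA gene Gm20098, 49.4 kb upstream, and the pseudogene Gm19197, 175.7 kb upstream, lie in the higher flank and held no summit of any list. The nearest protein-coding genes are Tbc1d5, 555.0 kb beyond the far end, and Kcnh8, 769.4 kb upstream. The farthest summit inside the limit was that of PPAR-alpha at 51970817, 137.5 kb upstream. The nearest outside the limit lay at 51408472 (PPAR-alpha), 327.7 kb below the gene, and at 52162427 (PPAR-alpha), 329.1 kb above it.

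Few genes had as many summits. Counted inside the gene, Satb1 ranked 1, 2 and 1 of 21887. Mroh2a, in a dense run of summits on chromosome 1, had equally many in p53 replicate 1 and PPAR-alpha and more in p53 replicate 2. At least 10 summits inside the gene were held by 3, 3 and 2 genes, or 0.0137%, 0.0137% and 0.00914%. With 5 kb on each side, Satb1 had 17, 15 and 12 and ranked 2 in each list, after Mroh2a. At least 1 summit at that distance was near 14.6%, 18.3% and 14.3% of genes. Counted at scores of 5 or more, it ranked 13 in p53 replicate 2 and 8 in PPAR-alpha and had none in p53 replicate 1. Satb1 is long, and per kb of gene with this margin it ranked 57, 111 and 154. With 200 kb on each side it ranked 19, 30 and 59.

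**Figure D2:**
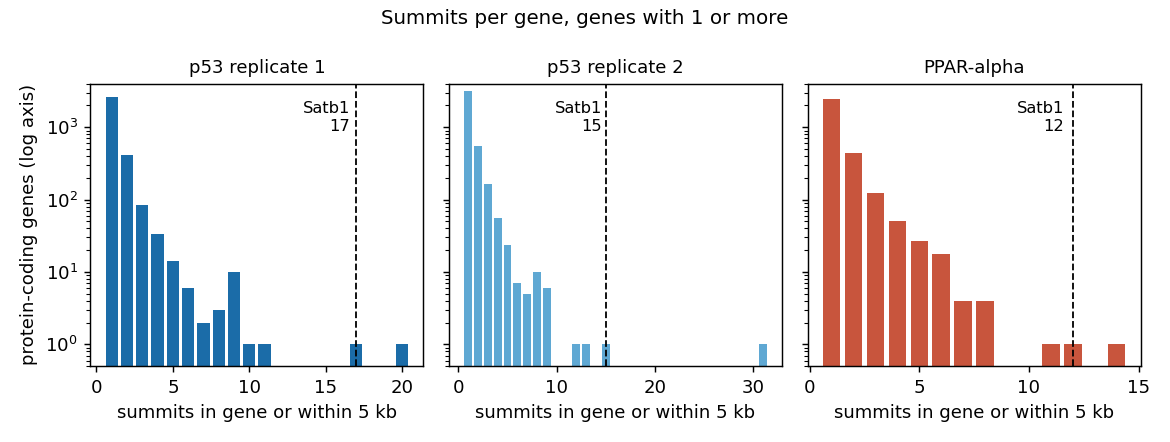
Number of protein-coding genes (log axis) by the number of summits inside the gene or within 5 kb, for genes with 1 or more, in each list. The dashed line marks Satb1, with 17, 15 and 12 summits.

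Neither p53 list had a summit from 5 to 200 kb beyond Satb1. Of all genes with at least 1 summit inside or within 5 kb, 30.9%, 24.6% and 29.0% had none at that distance. Of the 39 genes with 5 or more p53 replicate 1 summits inside or within 5 kb, 4 had none from 5 to 200 kb: Satb1, Edem1, Sla and Ccnd3. In p53 replicate 2 this held for 5 of 56, which were Satb1, Prex1, Il16, Tg and Runx1. The median number of such farther summits was 4 in each list over these genes. In PPAR-alpha 9 of 56 had none and Satb1 had 2.

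The genes most like Satb1 over the 3 lists, by the sum of squared differences of log2(count + 1) within 5 kb, were Ccnd3 and Mroh2a (1.09 each), Hjurp (1.62), Sfi1 (1.95) and Ugt1a1 (2.21). Ccnd3, which encodes cyclin D3, a cell cycle protein needed for growth of early thymocytes, is of similar length (94.6 kb) and had 9, 12 and 8 summits. Per 100 kb with the margin these were 8.60, 11.5 and 7.65, where Satb1 had 15.9, 14.0 and 11.2. Mroh2a had 20, 31 and 14 summits in 35.3 kb. Hjurp, for a histone chaperone of the centromere, had 11, 13 and 5, of which 6, 8 and 2 also count for Mroh2a beside it. Ugt1a1, for an enzyme of bilirubin conjugation, had 9, 8 and 6, of which 2, 1 and 2 also count for Mroh2a. Sfi1, for a centrosomal protein, had 8, 9 and 7. Likeness was measured over 3 libraries of 1 genotype.

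Satb1 summits had low scores in p53 replicate 1, scores around the middle of the list in p53 replicate 2, and 1 very high score in PPAR-alpha. In p53 replicate 1 scores ran from 2.18 to 4.70 with a median of 2.74, below the list's median of 3.99, and 0 of 17 reached 5, which 28.7% of the list did. In p53 replicate 2 they ran from 2.37 to 8.48 with a median of 3.62, equal to the list's median, with 11 of 15 at or above it, and 5 of 15 reached 5 (26.3% of the list). PPAR-alpha scores ran from 2.57 to 86.7 with a median of 4.13, where the list had 4.70, and 6 of 14 reached 5 (48.1% of the list). Scores of 10 or more were found at 0, 0 and 3 summits, beside 5.38%, 4.30% and 16.0% of the lists. Among genes with 5 or more summits within 5 kb, the highest p53 replicate 1 score at Satb1 (4.70) was exceeded at 31 of 39 genes (median of the 39 highest scores 7.93). The highest p53 replicate 2 score (8.48) was exceeded at 20 of 56 (median 6.72), and the highest PPAR-alpha score at 3 of 56 (median 12.7).

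The highest score of the locus was the PPAR-alpha summit at 51833122, inside the gene, 168 bp downstream of the outermost start and 475 bp upstream of the start 51832647 with the GC-rich window shown above. Its score of 86.7 ranked 42 of 4070 in the PPAR-alpha list. The closest p53 replicate 1 summit, at 51833027, lay 95 bp away and scored 2.74, a value that ranked 2630 of 3608. The closest p53 replicate 2 summit, at 51832170, lay 952 bp away and scored 4.33. That value was above 62.6% of its list, and the replicate 2 summit upstream of the outermost start, at 51834132 and 842 bp from it, scored 7.58, above 91.1%. The replicate 1 summit upstream of that start, at 51835142 and 1852 bp from it, scored 3.99, above 44.7% of its list. Near the outermost start the PPAR-alpha summit thus stood high in its list. Those of p53 replicate 1 stood low to near the middle, and those of p53 replicate 2 above the middle.

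The start-proximal part of the gene held most p53 summits. From 35 kb downstream of the outermost start to 5 kb upstream of it, 40 kb in all, lay 15 of 17 summits of p53 replicate 1 (88.2%), 12 of 15 of p53 replicate 2 (80.0%) and 6 of 14 of PPAR-alpha (42.9%). These limits were set after the positions were seen. Neighbouring summits there were a median of 1912, 1318 and 3355 bp apart. Over the lists as a whole the median spacing was 137.1, 100 and 108.8 kb. Closer spacing in this stretch follows in part from how the gene and the limits were chosen.

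**Figure D3:**
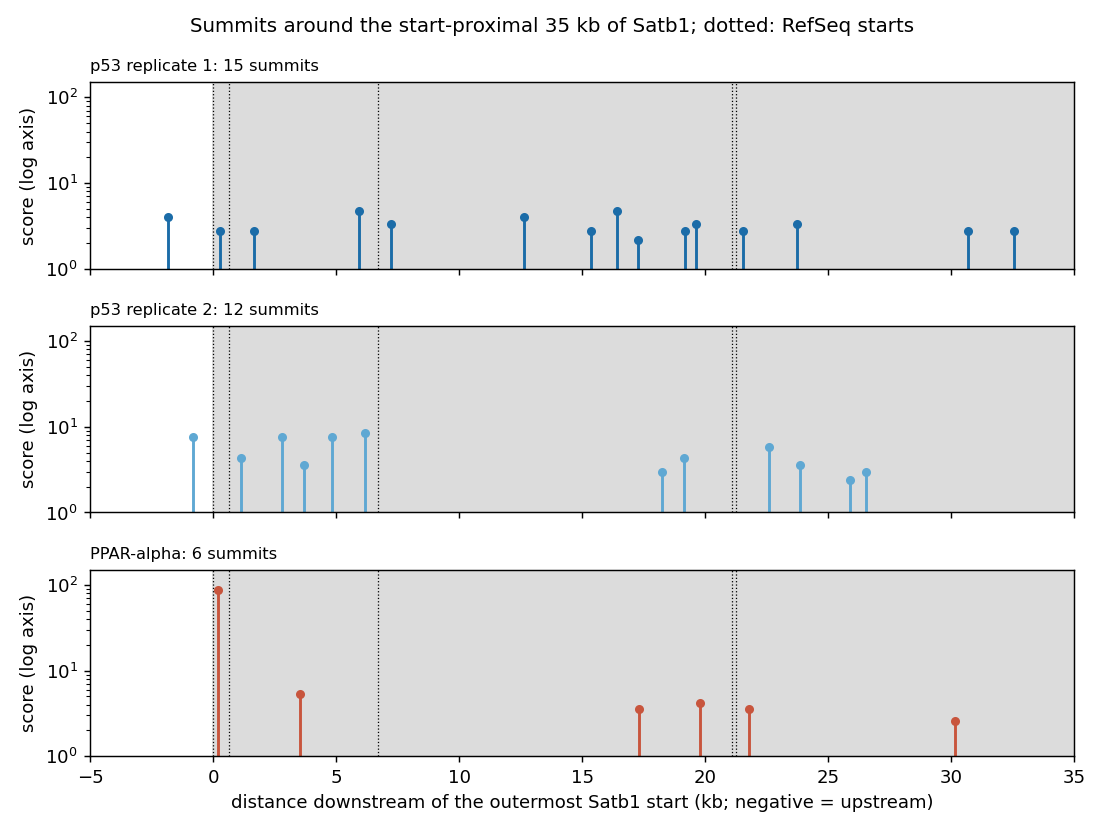
Score of each summit (log axis) against distance downstream of the outermost Satb1 start in kb, from 5 kb upstream to 35 kb downstream; dotted lines are the 5 RefSeq starts. The 15 summits of p53 replicate 1 spread over the stretch, the 12 of p53 replicate 2 form a group of 6 near the starts and another of 6 farther in, and the 6 of PPAR-alpha include the highest.

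Nearest the starts, p53 replicate 2 had 6 summits over 7.0 kb, at 51834132 (score 7.58), 51832170 (4.33), 51830516 (7.58), 51829599 (3.62), 51828451 (7.58) and 51827133 (8.48). These held its highest scores of the locus, and 51827133 ranked 249 of 4767 in its list. p53 replicate 1 had 51835142 (3.99), 51833027 (2.74), 51831657 (2.74), 51827385 (4.70) and 51826052 (3.34) here. The summits 51827133 and 51827385 of the p53 lists lay 252 bp apart, 545 and 797 bp upstream of the start 51826588 and outside its window. PPAR-alpha had 51829767 (5.30) besides its highest summit, 168 bp from the p53 replicate 2 summit at 51829599, and no summit within 3 kb of start 51826588.

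Farther into the gene, between 12.6 and 19.8 kb downstream of the outermost start, p53 replicate 1 had 51820651 (3.99), 51817925 (2.74), 51816880 (4.70), 51816028 (2.18), 51814128 (2.74) and 51813666 (3.34). p53 replicate 2 had 51815064 (2.97) and 51814138 (4.33), and none over the 12069 bp between 51815064 and 51827133. In that empty stretch of replicate 2, replicate 1 had 5 summits and PPAR-alpha 1, at 51815963 (3.58). PPAR-alpha also had 51813519 (4.13). From 51813519 to 51816880, 3361 bp, lay 8 summits of all 3 lists, each within 1 kb of the next.

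Around the pair of starts at 51812184 and 51812054, p53 replicate 1 had a summit at 51811742 (2.74), 312 bp downstream of the latter. PPAR-alpha had 51811487 (3.58), 567 bp downstream, and p53 replicate 2 had 51810701 (5.88), 1353 bp downstream. A little farther in, both p53 lists had a summit at 51809541 (3.34) and 51809444 (3.62). p53 replicate 2 alone had 51807393 (2.37) and 51806756 (2.97). At 30.2 to 32.5 kb from the outermost start, p53 replicate 1 had 51802619 (2.74) and 51800749 (2.74) and PPAR-alpha 51803111 (2.57), with none of p53 replicate 2.

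The middle of the gene was sparse. Between 51771392 and 51800749, 29.4 kb, no list had a summit. PPAR-alpha had 51771392 (3.58) and 51754098 (4.13). p53 replicate 1 had 51754115 (2.18), 17 bp from the latter, and p53 replicate 2 had 51756315 (3.62).

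At the far end of the gene PPAR-alpha had the most summits. It had 4, at 51742016 (3.06), 51738332 (5.30), 51736201 (8.57) and 51735331 (12.3). The summit 51736201 lay 14 bp inside the annotated end at 51736187, and 51735331 lay 856 bp beyond it. p53 replicate 2 had 51738418 (3.62) and 51736922 (2.37), and p53 replicate 1 had 51736572 (3.34). Both ends of Satb1 thus carried summits in all 3 lists. Of the 14 PPAR-alpha summits in the window, whatever their score, 3 lay within 1 kb of an annotated end of Satb1. They were 51735331, 51736201 and 51833122. Of all PPAR-alpha summits, 42.0% lay within 1 kb of a protein-coding gene end, and a difference from that share was not tested.

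Upstream of the starts PPAR-alpha alone had summits beyond 5 kb. The summit at 51879412 scored 13.0, ranked 419 of 4070, and lay 46.1 kb upstream of the outermost start and 44270 bp from the nearest p53 summit. That at 51970817 scored 2.57. The depth of the libraries is unknown, and its part in the lack of p53 summits here was not tested.

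In other long genes the part next to the start held the largest share of summits. Satb1 summits lay in that part and in those behind it, and most intervals of their shares held the shares of other genes. The comparison used 3866 other protein-coding genes of 50 kb or more with 1 strand in the promoter table, of which 577, 691 and 609 had 833, 1053 and 888 summits inside. Each gene was cut into 10 equal parts. The part next to the start held 4 of 16 Satb1 summits in p53 replicate 1 (25.0%, exact 95% interval 7.27 to 52.4%), 5 of 14 in p53 replicate 2 (35.7%, 12.8 to 64.9%) and 2 of 11 in PPAR-alpha (18.2%, 2.28 to 51.8%). Other genes had 49.1%, 49.1% and 43.0% of their summits there. The 4 parts next to the start together held 87.5% (61.7 to 98.4%), 78.6% (49.2 to 95.3%) and 54.5% (23.4 to 83.3%), where other genes had 65.8%, 67.0% and 64.6%. The part at the far end held 1, 2 and 3 Satb1 summits, or 6.25% (0.158 to 30.2%), 14.3% (1.78 to 42.8%) and 27.3% (6.02 to 61.0%), where other genes had 7.68%, 6.65% and 7.77%. These intervals cover counting error alone and treat neighbouring summits as independent, so they are no test of a difference. Each of the 9 holds the share of other genes. Of the intervals for all 10 parts in the 3 lists, 30 in all and not adjusted for their number, 2 did not hold it. Part 2 of p53 replicate 1 had 5 of 16 summits (31.2%, 11 to 58.7%), where other genes had 6.24%. Part 3 of p53 replicate 2 had 4 of 14 (28.6%, 8.39 to 58.1%), where other genes had 5.60%.

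**Figure D4:**
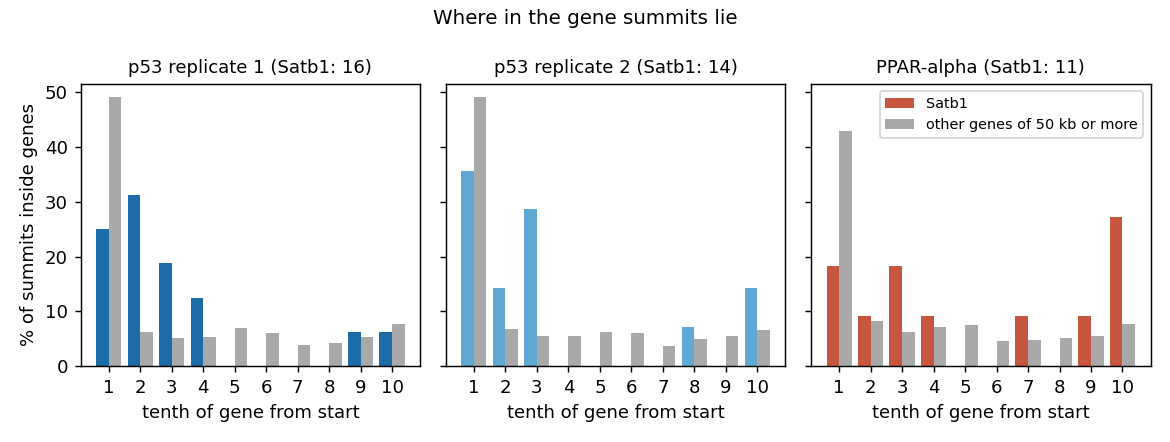
Percent of summits inside genes that fell in each of 10 equal parts from the start, for Satb1 (colour; 16, 14 and 11 summits) and for other genes of 50 kb or more (grey). Other genes peak in the part next to the start, and Satb1 has summits in parts 2 and 3 of each list and in the last part.

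As runs of summits at most 10 kb apart, the locus looked different in each list. p53 replicate 1 had 1 run of 15 over 34.4 kb, and 2 other runs of this list held at least as many. p53 replicate 2 had 2 runs of 6, over 8.31 and 7.0 kb, and 12 runs elsewhere were larger. PPAR-alpha had 2 runs of 4, over 12.9 kb near the starts and 6.68 kb at the far end, and 39 runs elsewhere were larger. These runs depend on the limit. With summits at most 20 kb apart the largest runs held 15, 12 and 6, and with 5 kb they held 8, 6 and 4.

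Few of these summits coincided between lists. Within 100 bp, p53 replicates 1 and 2 shared 2 places, 51814128 with 51814138 (10 bp) and 51809541 with 51809444 (97 bp). p53 replicate 1 and PPAR-alpha shared 3, which were 51754115 with 51754098 (17 bp), 51816028 with 51815963 (65 bp) and 51833027 with 51833122 (95 bp). p53 replicate 2 and PPAR-alpha shared 1, 51738418 with 51738332 (86 bp). No place was shared by all 3 lists at that distance.

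The shared places made up 11.8% of the window's p53 replicate 1 summits with replicate 2 (exact 95% interval 1.46 to 36.4%), beside 20.8% for the whole list and 12.9% for its summits scoring under 5, as all 17 did. They were 13.3% of the replicate 2 summits (1.66 to 40.5%, whole list 15.7%). With PPAR-alpha, p53 replicate 1 shared 17.6% (3.80 to 43.4%, whole list 17.4%) and p53 replicate 2 shared 6.67% (0.169 to 31.9%, whole list 15.6%). In the other direction PPAR-alpha shared 21.4% (4.66 to 50.8%) with replicate 1 and 7.14% (0.181 to 33.9%) with replicate 2, beside 15.4% and 18.3%. Every one of these intervals holds the share of its whole list. They treat neighbouring summits of the locus as independent, so they describe these counts, and a difference from the list was not tested.

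At 1000 bp, 8 of 17 p53 replicate 1 summits had one of replicate 2 (47.1%, whole list 52.2%) and 9 had one of PPAR-alpha (52.9%, whole list 45.9%). Of the p53 replicate 2 summits 8 of 15 had one of PPAR-alpha (53.3%, whole list 42.5%). When summits at most 1 kb apart were joined, the 46 fell into 23 sites, of which 4 held all 3 lists, 6 held 2 lists and 13 held 1. The 4 were at the far end (51735331 to 51736922), at 51810701 to 51811742 beside the inner starts, at 51813519 to 51816880, and at 51831657 to 51833122 around the outer starts. With summits this close, some lie within 1 kb of each other by their number alone, and how many was not tested.

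**Figure D5:**
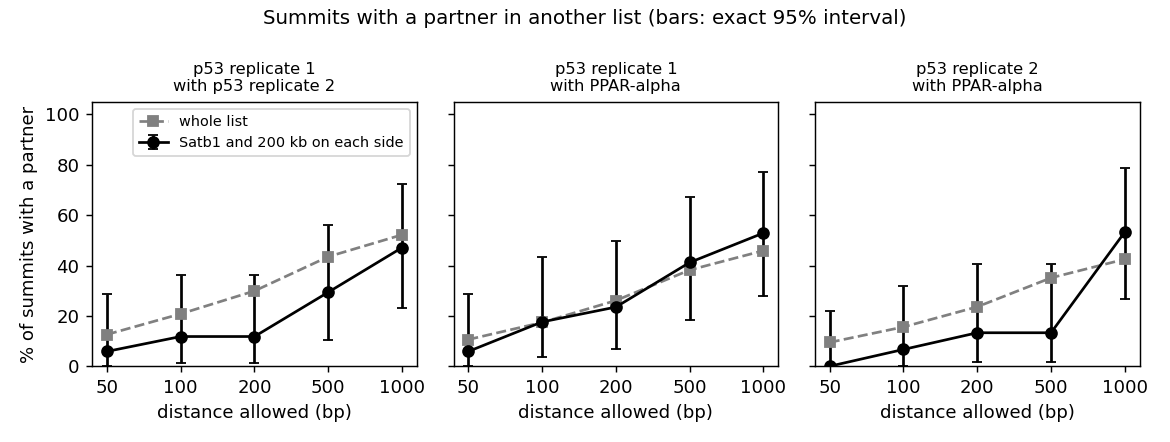
Percent of summits with a partner in another list, against the distance allowed in bp, for Satb1 with 200 kb on each side (black; bars are exact 95% intervals from counting alone) and for the whole list (grey squares). The intervals hold the value of the whole list at each distance drawn.

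Satb1 was then set beside 14 other genes of chromatin architecture. A summit lay inside or within 5 kb of 4, 7 and 2 of them (28.6%, 50.0% and 14.3%), where all protein-coding genes gave 14.6%, 18.3% and 14.3%. Their median number of summits was 0, 0.5 and 0, where all genes had a median of 0 in each list. Ldb1, for an adaptor of enhancer loops, had summits in all 3, with highest scores of 5.45, 3.62 and 3.58. Smc1a, Stag2, Mau2, Wapl, Pds5a, Pds5b and Hmgb1 had none. Smc1a and Stag2, for cohesin subunits, lie on X, a chromosome with 6, 9 and 16 summits in all.

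Among genes at which SATB1 is known to act in T cells, Cd4, Cd8b1, Rag1 and Bcl6 had summits in all 3 lists. Of 15 such genes, 6, 8 and 7 had a summit within 5 kb (40%, 53.3% and 46.7%, beside the same 14.6%, 18.3% and 14.3% of all genes), with a median of 0, 1 and 0 summits. Cd4, Cd8a, Cd8b1, Rag1 and Rag2 are also in the thymocyte list below, where 80%, 90% and 80% of genes had a summit. Apart from these, Runx3 and Bcl6 had a summit in p53 replicate 1. In p53 replicate 2 these were Runx3, Ikzf2, Tnfrsf18 and Bcl6, and in PPAR-alpha Zbtb7b, Il2ra and Bcl6. The counts thus rest in large part on thymocyte genes. Cd8b1, a chain of the CD8 coreceptor, had 8, 7 and 5 summits with highest scores of 6.24, 5.88 and 11.5. Cd4, the other coreceptor, had 1, 1 and 3 (highest 3.99, 4.33 and 5.91). Rag1, of antigen receptor recombination, had 1, 1 and 2 (3.99, 1.83 and 4.13), and Bcl6, for a repressor that directs follicular helper T cells, had 1, 1 and 3 (2.74, 2.97 and 26.2). Foxp3, which is also on X, Ctla4, Il4 and Il5, genes of regulatory and type 2 helper cells, had none in any list.

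A summit is no measure of expression, and the tissue could be checked in that limited way alone. Of 10 thymocyte genes (the CD3 chains, coreceptors, Rag1, Rag2, Ptcra and Dntt, some of them also counted above), 8, 9 and 8 had a summit within 5 kb. B cell and thymic epithelial genes had 0 of 5 each in every list, and myeloid genes had 1 of 5 in each. With 14.6%, 18.3% and 14.3% of all protein-coding genes within 5 kb of a summit, lists of 5 genes are too short to set counts of 0 or 1 apart from that background.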

How the data were processed

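Thymus chromatin of p53 AD/AD mice gave 2 p53 libraries, 1 PPAR-alpha library and 1 input. The authors deposited 1 list of summits per ChIP library, without header, with a score whose form and range fit a −log10 p- or q-value. The submitters' processing notes name MACS2 2.1.2, Bowtie2 2.3.4.2 and Picard 2.9.0, without roles, and the human build GRCh38. For threshold, control and read numbers, values were not given in the sources used here. Depth is thus unknown, and all intervals cover counting error only.

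Positions were therefore checked against the mouse RefSeq table, GRCm38.p6. On chromosome 17, 47.8%, 52.7% and 44.9% of the summits of p53 replicate 1, p53 replicate 2 and PPAR-alpha lay within 1 kb of a protein-coding gene end, and 6.17% to 11.9% after moving them by 5 to 50 kb. Positions count from 1. Strand and starts came from the RefSeq promoter table. No genome sequence or exon annotation was used, so exons, introns and the bases under summits were not examined.

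Counting used Python 3.11.15 with numpy 2.4.6, pandas 2.3.3 and scipy 1.17.1, and was tested on simulated summits. A summit was shared when another list had one at most 100 bp away. Intervals are exact (Clopper-Pearson) and treat summits as independent, which neighbours in the same gene need not be. Alternatives covered score, window, sharing distance, margin, run spacing and each p53 list alone. Named genes were Satb1, all genes in its window, the 5 most like it and list members with summits in all lists or in none. The other SATB1 target genes were named in addition. A gene of the architecture list is not reported here. The genes named for empty flanks were chosen after their values were seen. The gene, the lists and the limits were chosen with earlier results of these data known.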

Additional observations from a re-analysis of the deposited data

How the results depend on the processing

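No paired analysis was possible because no comparison rests on a test and the PPAR-alpha library has no replicate to pair with a p53 one. Of 106 alternative values, 41 stayed within 1.5 times the main value and 65 did not. Score was the choice that emptied the locus. At scores of 5 or more, the window kept 0 summits of p53 replicate 1, 5 of p53 replicate 2 (p53 mean 2.5) and 6 of PPAR-alpha. Density in the gene was then 0, 4.12 and 4.12 per 100 kb (p53 mean 2.06), flank density was 0 in p53 replicate 1 (p53 mean 0.125), and the rank within 5 kb was 13 in p53 replicate 2, 8 in PPAR-alpha and 19 for the p53 mean. At scores of 10 or more both p53 lists and their mean had 0 in the window, gene and flanks, and PPAR-alpha had 3, with 1.03 per 100 kb in the gene and rank 20. A rank is not given where Satb1 had 0. Summits shared between lists were 0 in each pair at either score.

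With 500 kb on each side the window held 24 PPAR-alpha summits. Allowing 50 bp, the shared places numbered 1 (p53 replicates), 1 (p53 replicate 1 with PPAR-alpha) and 0 (p53 replicate 2 with PPAR-alpha). Allowing 200 bp the last was 2, allowing 500 bp they were 5, 7 and 2, and allowing 1000 bp 8, 9 and 8. The rank was 1 in p53 replicate 1 and PPAR-alpha with no margin. With a margin of 20 kb it was 12 in p53 replicate 2, 6 in PPAR-alpha and 12 for the p53 mean. With 200 kb it was 19, 30, 59 and 20 for p53 replicate 1, p53 replicate 2, PPAR-alpha and the p53 mean, and per kb it was 57, 111, 154 and 60. The largest run was 8 in p53 replicate 1 at 5 kb and 12 in p53 replicate 2 at 20 kb. For genome architecture genes, 20 kb gave 7 in p53 replicate 1 and 6 in PPAR-alpha, and scores of 10 or more gave 0, 0 and 1 in the 3 lists. For SATB1 target genes those scores gave 0, 1 and 4. A score limit or another window leaves fewer or more summits by construction. Another run spacing splits or joins the same summits by construction, and the count per kb divides them by the length of the gene with its margin. Leaving out each p53 list in turn gave 15 to 17 summits in the window, 14.4 to 16.5 per 100 kb in the gene, 0.25 in the flanks and rank 2.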

Other observations

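Beyond the 200 kb limit the region upstream of Satb1 was not empty. Between 200 and 700 kb above the gene lay 8 summits of p53 replicate 1, 11 of p53 replicate 2 and 10 of PPAR-alpha, from 329.1 to 635.3 kb away, while the same span below the gene held 1 in each list. Those below were 51408236 (p53 replicate 1, score 3.34) and 51408472 (PPAR-alpha, 8.57), 236 bp apart, and 51179505 (p53 replicate 2, 9.40) in Tbc1d5. The stretch above was looked at after the positions were seen.

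Several places there were occupied in more than 1 list. At the long noncoding RNA gene Gm19585, 52163117 (p53 replicate 1, 3.99), 52162829 (p53 replicate 2, 5.88) and 52162427 (PPAR-alpha, 5.91) lay within 690 bp. At the far side, 52468595 (6.24), 52468540 (7.58) and 52468618 (18.0) lay within 78 bp, the place in the region with a summit of all 3 lists within 100 bp of each other, which the 200 kb window around Satb1 did not have. p53 replicate 2 and PPAR-alpha had 52282342 (2.97) and 52282467 (9.27), 125 bp apart, and 52220290 (1.34) and 52220408 (4.13), 118 bp apart. In Gm41600, also a long noncoding RNA gene, p53 replicate 1 had 52304923 (5.45), 52310818 (3.99) and 52311796 (2.18), and PPAR-alpha had 52311049 (3.58) and 52312151 (8.57), with none of p53 replicate 2. Both p53 lists and not PPAR-alpha had summits at 52351586 (3.34) and 52351438 (2.97), 148 bp apart, and at 52349488 (1.68) and 52349081 (2.97), 407 bp apart.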
